A study of Homo sapiens with 10 samples.

Results

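MN1 is a transcriptional co-regulator without a known DNA-binding domain of its own, and its gene takes part in fusions with partners such as BEND2 and CXXC5 in tumours of the brain. Here MN1 and its fusions with BEND2 and CXXC5 were expressed in one human cell line, in a study of how MN1:BEND2 activates transcription, and the comparison asks which genes differed wherever MN1 sequence was present. The members were 6 RNA-seq libraries of the lines named MN1, MN1-BEND2 and MN1-CXXC5, set against 4 libraries of the lines named CTRL and BEND2. These are all 10 libraries of the series, 2 for each line, and each line had equal weight in the contrast. All were TREx293 cells, derived from human embryonic kidney cells, that hold a tetracycline repressor and a recombination site. Per the labels' protocols, complementary DNAs with an HA epitope tag were placed at that site, cells were selected with blasticidin and hygromycin, and doxycycline induced expression. The genotype of the control line is given as wild type, while BEND2, MN1, MN1-BEND2 and MN1-CXXC5 are each given as a knock-in of that name. Whether the control line received doxycycline, blasticidin or hygromycin is not stated. A difference from CTRL alone therefore cannot be told apart from the effect of making and inducing a line, which the BEND2 line shares with the MN1-carrying lines. Each genotype is a single named line, and nothing says that the 2 libraries of a line came from separate cultures. The p-values measure the spread between these libraries, which may be technical, and not the spread between independently made lines.

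MN1 binds the coactivators p300 and CBP, cooperates with retinoic acid receptors, shares target sites with MEIS1 and HOXA9 in leukaemia models and is known to engage the BAF chromatin remodelling complex. ATF4, which recurs below, is the main transcription factor of the integrated stress response and switches on genes of amino acid uptake and synthesis. TXNIP and ARRDC4 are alpha-arrestins whose transcription follows glucose through the factors MondoA (MLXIP) and MLX. All 3 subjects are background and carry no result.

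Total counts ran from 15.9 to 26.8 M (1e6 counts) per library, so that 3 counts corresponded to 0.112 to 0.189 CPM, the count scaled to a library of 1e6. All levels below are CPM after TMM scaling, and differences are on the log2 scale with their standard error (SE). A gene is called at a p under 0.05 in edgeR (quasi-likelihood F-test) after Benjamini-Hochberg adjustment over the 18127 tested genes. Transcripts of salivary gland and squamous epithelium summed to 96.5 CPM in CTRL replicate 1 and 86.3 CPM in MN1 replicate 1, against 1.17 to 3.49 CPM in the other 8 libraries, which places 1 such library on each side of the contrast. The 14 markers of HEK293 cells were all above the filter, at 1190 to 1804 CPM in sum in the MN1-carrying lines and 1434 to 1466 CPM in the others. Of these, 3 were called higher, 5 lower and 6 neither way (19.7% and 24.6% of all tested genes were called higher and lower), and the list's median difference was -0.03. Leukocyte markers summed to 1.78 to 8.3 CPM in the MN1-carrying lines and 1.82 to 9.91 CPM in the others, and none of the 5 tested was called.

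The start-site windows of the leading genes are shown first, because the sections on rises and falls refer back to them. They are the first 3 rises and first 3 falls in the ranking described below that the rule for printing allowed and that were held in the RefSeq promoter table (build GRCh38.p14), and each spans 250 bases before to 50 bases after the transcription start that the table gives. For PLXNC1 that start is internal: the window lies inside the gene, far downstream of the gene start in GENCODE v29 (94148723), and is not the promoter of the full-length gene. Capitals mark matches, on either strand, to a motif bound by MEIS factors (TGACAG, or CTGTCA on the other strand) and to the carbohydrate response element (CACGNG, then any 5 bases, then CACGNG again). PLXNC1 lies at chr12:94262369-94262668 (plus strand), PLCL1 at chr2:197804343-197804642 (plus strand), FAM105A, named OTULINL in RefSeq, at chr5:14581542-14581841 (plus strand), TXNIP at chr1:145996530-145996829 (minus strand), G0S2 at chr1:209675162-209675461 (plus strand) and BMF at chr15:40108830-40109129 (minus strand).
PLXNC1: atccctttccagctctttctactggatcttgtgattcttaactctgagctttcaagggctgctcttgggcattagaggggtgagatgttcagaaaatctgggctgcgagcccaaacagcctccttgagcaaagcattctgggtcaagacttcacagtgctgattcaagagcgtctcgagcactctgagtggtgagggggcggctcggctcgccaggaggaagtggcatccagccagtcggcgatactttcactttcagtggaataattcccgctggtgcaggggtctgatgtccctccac
PLCL1: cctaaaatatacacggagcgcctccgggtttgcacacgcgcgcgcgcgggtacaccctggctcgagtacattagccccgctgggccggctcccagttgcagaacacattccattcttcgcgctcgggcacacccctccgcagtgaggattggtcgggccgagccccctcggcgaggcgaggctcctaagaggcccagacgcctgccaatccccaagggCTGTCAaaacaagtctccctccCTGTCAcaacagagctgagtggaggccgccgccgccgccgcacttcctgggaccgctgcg
FAM105A: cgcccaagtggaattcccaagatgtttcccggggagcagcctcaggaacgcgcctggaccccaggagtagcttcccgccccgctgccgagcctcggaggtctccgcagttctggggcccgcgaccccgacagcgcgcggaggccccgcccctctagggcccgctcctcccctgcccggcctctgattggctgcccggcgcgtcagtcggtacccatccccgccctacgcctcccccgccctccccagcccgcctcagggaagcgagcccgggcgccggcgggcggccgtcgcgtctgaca
TXNIP: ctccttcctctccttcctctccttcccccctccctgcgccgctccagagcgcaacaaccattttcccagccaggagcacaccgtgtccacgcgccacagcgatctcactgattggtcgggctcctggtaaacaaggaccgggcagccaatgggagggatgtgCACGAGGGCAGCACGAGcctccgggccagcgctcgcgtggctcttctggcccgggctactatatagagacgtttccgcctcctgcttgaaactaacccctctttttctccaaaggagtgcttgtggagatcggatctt
G0S2: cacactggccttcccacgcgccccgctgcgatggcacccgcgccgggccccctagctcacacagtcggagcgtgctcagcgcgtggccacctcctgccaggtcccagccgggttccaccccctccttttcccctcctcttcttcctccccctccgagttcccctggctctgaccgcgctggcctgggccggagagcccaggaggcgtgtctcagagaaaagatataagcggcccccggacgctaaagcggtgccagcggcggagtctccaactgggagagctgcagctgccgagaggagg
BMF: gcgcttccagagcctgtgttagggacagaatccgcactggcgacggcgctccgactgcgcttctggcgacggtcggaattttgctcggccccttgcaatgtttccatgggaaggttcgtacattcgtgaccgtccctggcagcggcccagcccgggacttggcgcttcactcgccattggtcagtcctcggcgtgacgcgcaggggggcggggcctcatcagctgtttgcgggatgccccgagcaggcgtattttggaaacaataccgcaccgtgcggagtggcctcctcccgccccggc
The PLCL1 promoter held the MEIS motif at -32 and -10 from the start, and TXNIP held the carbohydrate response element at -88. The MEIS motif was not particular to rises. Among the other leading genes searched, it lay in the rise PDGFRA (-87) and in the falls TSC22D3 (-2), DDIT4 (-154) and RAPGEF3 (-26). Of 35116 promoters in the table, 15.8% held the MEIS motif and 0.057%, or 20 promoters, held the carbohydrate response element. No match to a TATA box (TATAAA) or to the element read by ATF4 and C/EBP factors (TGATGNAA) lay in these 6 windows, where 11.5% and 3.62% of all promoters held one. No matches of different motifs overlapped in the 6 windows. A match is a description of the letters and not a binding site.

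The construct genes check the labels. MN1 lies on chromosome 22 from 27748277 to 27801498 (GRCh38, GENCODE v29, as for all gene positions here). Its level was 3.91 and 3.81 CPM in CTRL, 5.39 and 4.93 in BEND2, 328 and 325 in MN1, 291 and 291 in MN1-BEND2, and 128 and 128 in MN1-CXXC5. All 6 labelled carriers were therefore far above the other 4 libraries, by 5.68 on the log2 scale (SE 0.0333, edgeR adjusted p = 1.02e-16), but MN1-CXXC5 held fewer MN1 reads than the other carriers. Construct and endogenous reads are not separated in these counts, and protein was not measured in them. In bulk RNA, fewer cells expressing a gene and less of its RNA per cell cannot be told apart, here or in any result below. BEND2, on chromosome X from 18162931 to 18220883, reached 389.9 and 399 CPM in the line of its name and 394 and 407 CPM in MN1-BEND2. In the other 6 libraries it ranged from 0 to 0.573 CPM, which is as labelled. One line on each side of the contrast thus carried BEND2, and the gene was not called (-0.95, SE 0.601, adjusted p = 0.226). CXXC5 (chromosome 5, 139647299 to 139683882) was highest in MN1-CXXC5, at 55.2 and 61.9 CPM, and stood at 12.4 to 13.6 CPM in the 4 libraries without MN1. Its called difference of 0.79 (SE 0.0516, adjusted p = 2.54e-07) rested on that line, since without it the value was 0.10 (adjusted p = 0.201).

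Averaged over lines, 8015 of 18127 genes (44.2%) were called, 3564 higher (19.7%) and 4451 lower (24.6%) in the MN1-carrying lines. Most differences were small, with a median of 0.24 among the rises and -0.25 among the falls. A difference of at least 1 (log2) was reached by 165 called rises (0.91%) and 127 called falls (0.701%). An average can be moved by 1 line, so each of the 3 MN1-carrying lines was also tested against each of the 2 others. In all 6 of these pairs 637 genes (3.51%) were called in one direction, 310 higher (1.71%) and 327 lower (1.8%). Scaling by library totals gave 219 and 419, offsets for GC content and length 270 and 546, and no filter 226 and 361, so the balance of directions in that set depends on the scaling. Per library and with no model, 1697 genes (9.36%) had 6 and 4 libraries that did not overlap, 782 higher (4.31%) and 915 lower (5.05%), against 604 and 1179 with library totals, 499 and 1203 with GC and length offsets, and 698 and 1122 with no filter.

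The called genes split widely by line. Of the 3564 rises, 310 (8.7%) were called in all 3 MN1-carrying lines against both CTRL and BEND2, 757 in MN1-BEND2 alone, 483 in MN1-CXXC5 alone and 319 in MN1 alone. Pairs of lines made up 538 (MN1-BEND2 and MN1-CXXC5), 506 (MN1 and MN1-BEND2) and 372 (MN1 and MN1-CXXC5), and 279 rises were called for no single line. Among the 4451 falls, 327 (7.35%) were shared by all 3 lines, 992 were of MN1-BEND2 alone and 922 of MN1-CXXC5 alone. The 3 MN1-carrying lines differed among themselves in 12424 genes (68.5%), and the CTRL and BEND2 lines from each other in 2569 (14.2%). Among genes called in all 6 pairs, 229 of the 310 rises and 235 of the 327 falls also differed in size among the 3 MN1-carrying lines. The difference MN1-BEND2 minus BEND2 was unequal to the difference MN1 minus CTRL in 6687 genes (36.9%).

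**Figure D1:**
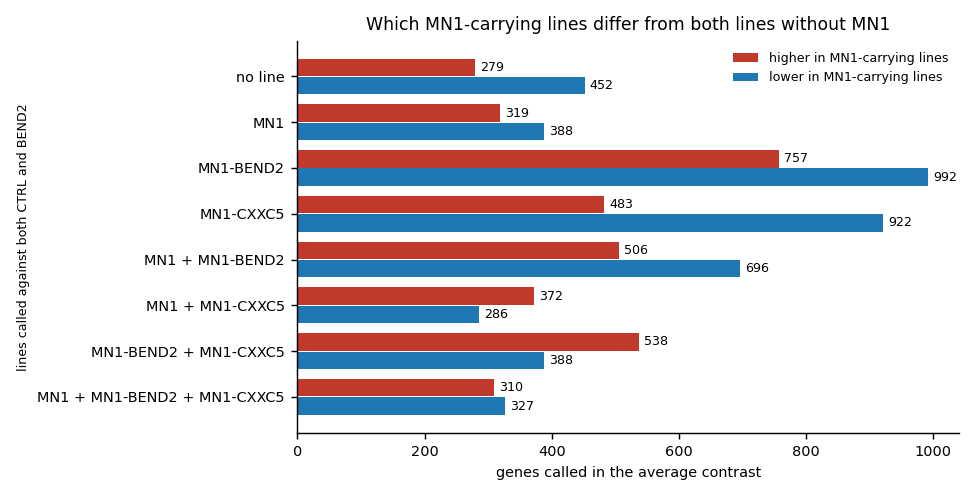
Number of genes called in the average contrast (horizontal axis) by which MN1-carrying lines were called against both CTRL and BEND2 in the same direction (vertical axis); red bars are rises and blue bars falls, and the number is printed at each bar. The bars of MN1-BEND2 alone, 757 and 992, are longer than those shared by all 3 lines, 310 and 327.

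With the line as the unit, the counts of a line's 2 libraries were summed and 3 lines were tested against 2. No gene was then called by edgeR, DESeq2 was not run on these sums, and 800 genes (4.41%) had an unadjusted p under 0.05. The smallest adjusted p was 0.0908, for MN1, and the next 0.356, with 3 residual degrees of freedom and a common coefficient of variation of 0.226 in place of 0.040. An exact two-sided permutation test over 5 lines cannot go below p = 0.1. The tests below therefore show that these 10 libraries differ, and not that other lines with MN1 would.

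**Figure D2:**
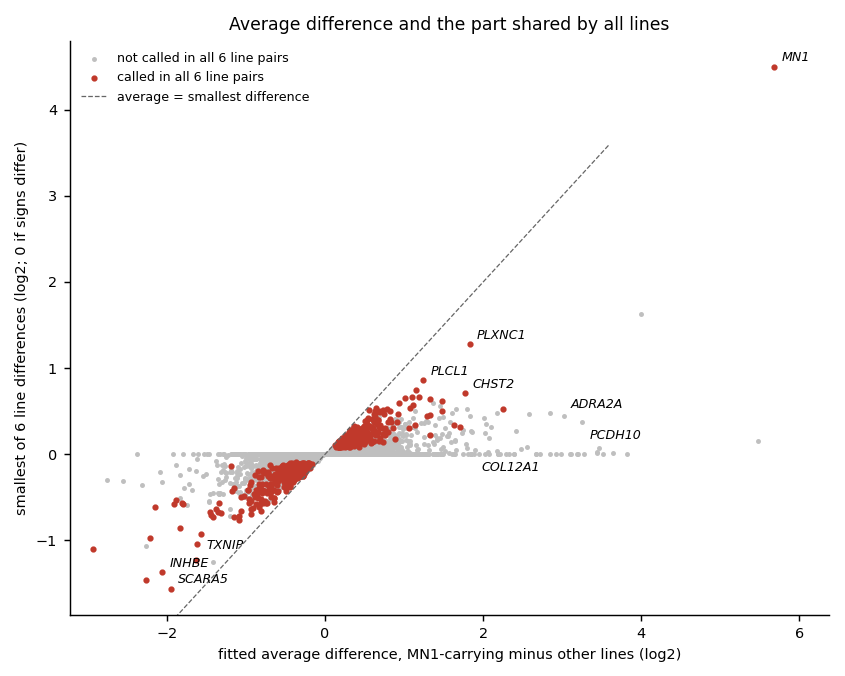
Each point is 1 of 18127 tested genes, with the fitted average difference between MN1-carrying and other lines on the horizontal axis (log2) and the smallest of the 6 differences between line means on the vertical axis (log2 of CPM plus 0.5, 0 where the 6 signs differ); red points were called in all 6 pairs. MN1 lies farthest to the upper right at 5.68 and 4.50, while ADRA2A and PCDH10 have averages above 3 with a smallest difference of 0.45 and 0.37.

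The rises shared by all lines were ranked by the smallest of the 6 line differences. After MN1 the first 11 were PLXNC1, PLCL1, FAM105A, CHST2, SNCAIP, EOMES, FGF5, PDGFRA, TSHZ3, MEGF10 and SAMD5, which had been ranked among genes with at least 5 CPM on the higher side and no overlap between libraries. PLXNC1 (chromosome 12, 94148723 to 94307675) encodes a plexin, the receptor of semaphorin 7A. It stood at 11.6 and 13.1 CPM in CTRL, 10.9 and 12.2 in BEND2, 40 and 43.2 in MN1, 60.5 and 59.2 in MN1-BEND2, and 29.7 and 31.5 in MN1-CXXC5. Every carrier lay far above the highest other library, and the difference was 1.83 (SE 0.0484, adjusted p = 2.19e-10). PLCL1 (chromosome 2, 197804702 to 198572581), a phospholipase C relative without enzyme activity, stood at 7.24 and 6.37 CPM in CTRL, 5.65 and 5.49 in BEND2, 12.7 and 14.9 in MN1, 13.2 and 12.3 in MN1-BEND2, and 16.5 and 18.3 in MN1-CXXC5. Its rise of 1.24 (SE 0.074, adjusted p = 1.27e-07) lay between 0.91 and 1.64 in the 6 pairs. FAM105A (chromosome 5, 14581775 to 14615007), of the OTU deubiquitinase family, went from 35.7, 35.2, 40.5 and 41.7 CPM in the libraries without MN1 to 101 and 98.2 in MN1, 85.5 and 90.5 in MN1-BEND2, and 69.4 and 69.5 in MN1-CXXC5 (1.15, SE 0.0278, adjusted p = 1.18e-10). The windows of these 3 genes are printed above, that of PLXNC1 at an internal start.

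Growth factor and receptor genes were lower in level. FGF5 (chromosome 4, 80266599 to 80336680), a secreted fibroblast growth factor, rose from 6.83 ± 0.581 CPM in CTRL and 7.86 ± 0.703 in BEND2 to 12.5 ± 0.472 in MN1, 16.7 ± 1.37 in MN1-BEND2 and 30.1 ± 0.513 in MN1-CXXC5 (SD, n = 2 each; 1.33, SE 0.0641, adjusted p = 2.3e-08). PDGFRA (chromosome 4, 54229097 to 54298247), the alpha receptor of platelet-derived growth factor, stood at 1.35 to 2.75 CPM in the 4 libraries without MN1 and at 3.67 to 11.4 CPM in the 6 with it (1.48, SE 0.138, adjusted p = 4.41e-06). Its highest values, 11.4 and 11 CPM, were in MN1-BEND2. PDGFRA is also a fibroblast marker, and the summed level of the 10 fibroblast markers ran from 9.28 to 24.2 CPM in the MN1-carrying libraries and from 9.17 to 13.5 CPM in the others. Of the 5 fibroblast markers tested 3 were called higher (19.7% of all genes), and the part of other cells in the result was not tested. MEGF10 (chromosome 5, 127290831 to 127465737), an engulfment receptor, rose from 3.68 to 5.43 CPM to 7.5 to 13.4 CPM (1.11, SE 0.0854, adjusted p = 9e-07).

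Transcription factor genes in the same ranking were EOMES and TSHZ3. EOMES (chromosome 3, 27715949 to 27722711), a T-box factor, stood at 4.53, 4.49, 5.1 and 4.49 CPM without MN1 and at 9.47, 11.2, 9.62, 11.1, 8.35 and 7.22 CPM with it (1.01, SE 0.0888, adjusted p = 2.68e-06). TSHZ3 (chromosome 19, 31274945 to 31349547), a zinc finger factor of smooth muscle and neuron development, was highest in MN1 at 54.8 ± 1.98 CPM, with 35.7 ± 1.58 in MN1-BEND2 and 40.2 ± 1.52 in MN1-CXXC5, against 23.5 ± 1.54 in CTRL and 21.3 ± 0.712 in BEND2 (0.93, SE 0.0391, adjusted p = 8.45e-09). SNCAIP, the synuclein partner synphilin-1 (1.10, SE 0.0635), and SAMD5, a protein with a sterile alpha motif (0.64, SE 0.0268), were also among the shared rises. SNCAIP rose least in MN1, from 6.29 to 6.74 CPM without MN1 to 10.9 and 10.9, and reached 14.6 to 17.9 CPM in the 2 fusion lines. SAMD5 stood at 31.8 to 33.6 CPM without MN1 and 48.1 to 54.1 CPM with it, a small rise with little spread. CHST2, a sulfotransferase of glycans, averaged 1.77 (SE 0.145, adjusted p = 1.46e-06), but most of that came from MN1-BEND2, at 11.8 and 13.3 CPM. In MN1 and MN1-CXXC5 it stood at 1.98 to 2.62 CPM, against 0.998 to 1.37 CPM in the lines without MN1, a difference of 0.91 to 1.00 in those 4 pairs (adjusted p = 0.00417 to 0.0069).

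The first 12 falls in the same ranking were SCARA5, INHBE, TXNIP, G0S2, BMF, STC1, TSC22D3, DDIT4, ARRDC4, RAPGEF3, GPRC5A and XKR5. SCARA5 (chromosome 8, 27869882 to 27992727), a ferritin receptor, stood at 26.8 and 29.9 CPM in CTRL, 22.4 and 25.5 in BEND2, 7.64 and 7.76 in MN1, 7.98 and 7.56 in MN1-BEND2, and 5.45 and 4.64 in MN1-CXXC5. The 3 carriers were close to each other and far below both other lines (-1.95, SE 0.0636, adjusted p = 9.56e-10), and BEND2 did not differ detectably from CTRL (-0.26, SE 0.0856, adjusted p = 0.0687). INHBE (chromosome 12, 57452323 to 57459280), which encodes the beta subunit of activin E and is a target of ATF4, stood at 46.4 and 46.8 CPM in CTRL, 27.5 and 24.5 in BEND2, 9.81 and 9.64 in MN1, 7.61 and 7.88 in MN1-BEND2, and 7.81 and 7.63 in MN1-CXXC5. It fell by 2.06 on average (SE 0.0467, adjusted p = 8.3e-11), and it was already lower in BEND2 than in CTRL (-0.83, SE 0.0619, adjusted p = 2.37e-05).

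TXNIP and ARRDC4, both alpha-arrestins, were likewise highest in CTRL, intermediate in BEND2 and lowest in the carriers. TXNIP (chromosome 1, 145992435 to 145996600), an inhibitor of thioredoxin and of glucose uptake, stood at 112 and 112 CPM in CTRL, 72.9 and 72.4 in BEND2, 21.2 and 20.3 in MN1, 34.1 and 35.4 in MN1-BEND2, and 35.1 and 35.1 in MN1-CXXC5. The 3 carriers were below both references, with an average difference of -1.62 (SE 0.0249, adjusted p = 1.71e-12). ARRDC4 (chromosome 15, 97960698 to 97973838) stood at 333 and 326 CPM in CTRL, 225 and 223 in BEND2, 66.3 and 63.9 in MN1, 105 and 104 in MN1-BEND2, and 141 and 139 in MN1-CXXC5 (-1.46, SE 0.0203, adjusted p = 6.75e-13). BEND2 alone was below CTRL in both genes, by -0.62 and -0.56 (adjusted p = 2.65e-06 each). Of the 8 tested genes of this list, 5 were lower, 2 higher and 1 neither way (24.6% and 19.7% of all genes were lower and higher), with a median of -0.29, but TXNIP and ARRDC4 were the only members called in all 6 pairs. MLXIP (0.14) and MLX (0.27), the genes of the glucose-sensing factors, were called higher on average, and MLX was raised mainly in MN1 (90.8 and 91.4 CPM against 56.3 to 68 CPM in the other 8 libraries). The carbohydrate response element was found in 1 of 8 promoters of the list, that of TXNIP printed above.

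TSC22D3 (chromosome X, 107713221 to 107777342), the glucocorticoid-induced leucine zipper, was the most abundant of the leading falls. Its levels were 1120 and 1089 CPM in CTRL, 776 and 776 in BEND2, 323 and 319.6 in MN1, 487 and 481 in MN1-BEND2, and 335 and 328 in MN1-CXXC5 (-1.32, SE 0.0179, adjusted p = 6.75e-13). NR3C1, the glucocorticoid receptor gene, was also called lower in all 6 pairs, from 133 to 153 CPM in the 4 libraries without MN1 to 104 to 123 CPM in the 6 with it (-0.38, SE 0.022, adjusted p = 1.1e-07). Not every glucocorticoid-induced gene was lower. FKBP5 was called higher on average (0.24) with its highest levels in MN1-BEND2, SGK1 was called higher (1.28) with levels of 18.5 to 19.9 CPM in MN1 and MN1-BEND2 against 4.74 to 5.47 CPM in the other 6 libraries, and of the 11 list members 5 were lower, 2 higher and 4 neither way (24.6% and 19.7% of all genes; median -0.08).

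Further falls concerned cell death, lipid storage and signalling. BMF (chromosome 15, 40087890 to 40108892), a BH3-only activator of apoptosis, fell from 12.4 to 13.4 CPM in the libraries without MN1 to 7.34 to 7.87 CPM in MN1 and MN1-CXXC5 and to 4.39 and 3.41 CPM in MN1-BEND2 (-1.09, SE 0.0728, adjusted p = 2.88e-07). G0S2 (chromosome 1, 209675420 to 209676388), an inhibitor of triglyceride lipase, stood at 7.12 ± 0.573 CPM in CTRL, 4.17 ± 0.455 in BEND2, 1.04 ± 0.125 in MN1, 1.88 ± 0.269 in MN1-BEND2 and 0.791 ± 0.389 in MN1-CXXC5 (-2.22, SE 0.147, adjusted p = 2.7e-07). STC1, a secreted glycoprotein, fell from 9.58 to 11.5 CPM to 2.43 to 6.59 CPM (-1.44, SE 0.0814), and RAPGEF3, the cyclic AMP sensor EPAC1, from 13.6 to 17.3 CPM to 4.97 to 9.32 CPM (-1.06, SE 0.0941). GPRC5A, an orphan receptor induced by retinoic acid, stood at 24.9 to 27.3 CPM without MN1 and at 12.7 to 16.1 CPM with it (-0.81, SE 0.0559, adjusted p = 3.79e-07). The 3 carriers did not differ detectably in GPRC5A (adjusted p = 0.25) or in XKR5 (-0.94, SE 0.0947; adjusted p among carriers = 0.638).

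**Figure D3:**
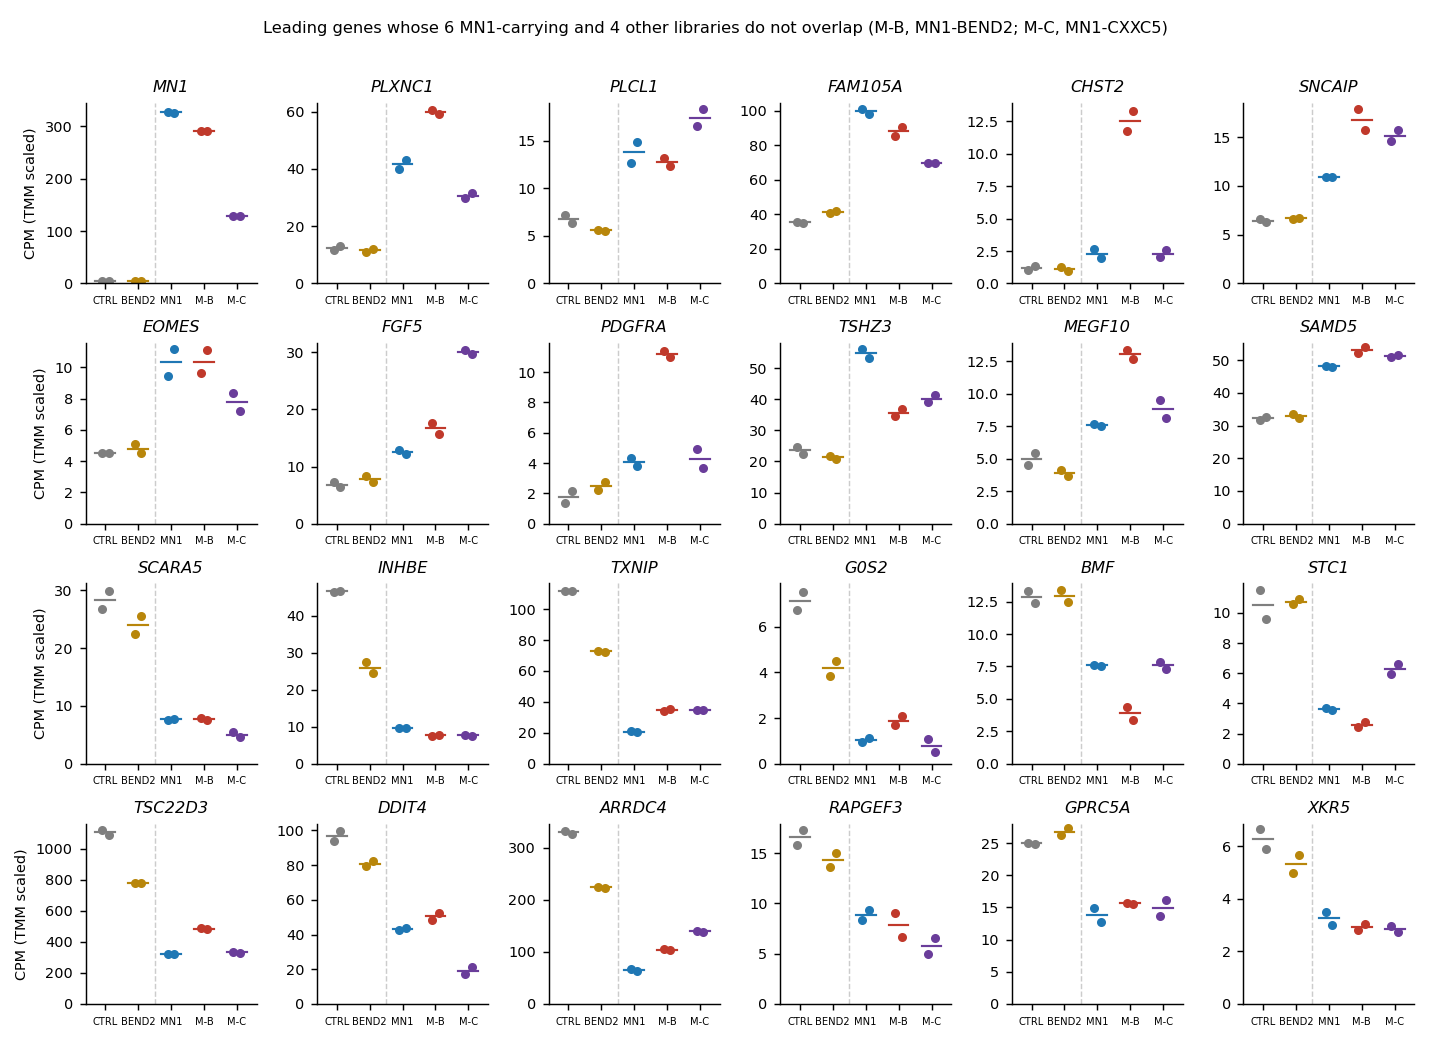
Levels of the 12 leading rises (upper 2 rows of panels) and 12 leading falls (lower 2 rows) in CPM, starting at 0, in the CTRL, BEND2, MN1, MN1-BEND2 (M-B) and MN1-CXXC5 (M-C) lines; points are libraries, horizontal bars are line means, and the dashed line separates lines without and with MN1 sequence. The genes were chosen so that the 6 libraries to the right lie wholly above or wholly below the 4 to the left, as in 9.36% of all tested genes. SCARA5, for example, had 22.4 to 29.9 CPM on the left against 4.64 to 7.98 CPM on the right.

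ATF4 targets were lower as a list. All 27 tested members were called lower in the MN1-carrying lines, against 24.6% of all tested genes, and the median difference was -0.59, against -0.02 for all genes. In all 6 line pairs 13 of the 27 were called lower (1.8% of all genes), and 17 had libraries that did not overlap (5.05% of all genes). The medians by line, against the mean of CTRL and BEND2, were -0.71 in MN1, -0.48 in MN1-BEND2 and -0.69 in MN1-CXXC5. Against both CTRL and BEND2, 21 members were lower in MN1, 20 in MN1-BEND2 and 21 in MN1-CXXC5, where 12.6%, 18.7% and 18.9% of all genes were. This list was drawn up with earlier results of these data known, so its counts are a description and not independent evidence of its direction.

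By role, the fall took in transport, synthesis and regulatory members. SLC7A11 (chromosome 4, 138164097 to 138242349), the cystine transporter, stood at 187 and 181 CPM in CTRL, 139 and 136 in BEND2, 122 and 119 in MN1, 63.3 and 61.5 in MN1-BEND2, and 92.2 and 90.6 in MN1-CXXC5 (-0.85, SE 0.022, adjusted p = 1.82e-10). The transporter genes SLC3A2 (-0.45) and SLC7A1 (-0.45) were also called lower in all 6 pairs, whereas SLC7A5 (-0.28) was lowest in MN1-CXXC5, at 80.6 and 77.6 CPM, and highest in MN1-BEND2, at 157 and 147 CPM. Among regulators, CEBPG (chromosome 19, 33373330 to 33382686), which forms dimers with ATF4, fell from 876 and 859.6 CPM in CTRL and 626 and 607 in BEND2 to 393 and 396 in MN1, 456 and 461 in MN1-BEND2, and 517 and 522 in MN1-CXXC5 (-0.69, SE 0.0182, adjusted p = 2.19e-10). DDIT3, the factor CHOP (-0.84), TRIB3, a pseudokinase (-0.90), and CEBPB (-0.89) were called lower in all 6 pairs. DDIT4 (chromosome 10, 72273920 to 72276036), an inhibitor of mTOR complex 1, stood at 93.6 and 99.7 CPM in CTRL, 79.5 and 82.1 in BEND2, 42.6 and 43.9 in MN1, 48.5 and 52.5 in MN1-BEND2, and 17 and 21.3 in MN1-CXXC5 (-1.35, SE 0.0439, adjusted p = 9.63e-10). Enzymes of serine and one-carbon metabolism had small differences. PHGDH (-0.08), MTHFD2 (-0.18), SHMT2 (-0.22) and PSAT1 (-0.34) were lower on average, and none of them was called in all 6 pairs. The gene of ATF4 itself, looked up after its value was seen, was not lower but slightly higher (0.12, SE 0.0325, adjusted p = 0.00909), with libraries that overlapped.

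The BEND2 line lay between CTRL and the carriers for many members. Against CTRL, 15 of the 27 ATF4 targets were called lower in BEND2 and 0 higher (7.46% and 6.71% of all genes), with a median of -0.18. Without the CTRL line, so that BEND2 was the only reference, 25 of 27 were still called lower with a median of -0.44, and without the BEND2 line 27 were, with a median of -0.61. Of all genes, 3172 were called lower without the CTRL line and 4098 without the BEND2 line. Over the 21 alternatives other than the line as the unit, between 24 and 27 members were called lower and at most 1 higher. With the line as the unit 0 members were called. Aminoacyl-tRNA synthetases, another set of ATF4 targets, did not all move one way. Of 20, 10 were called lower and 4 higher (24.6% and 19.7% of all genes), with a median of -0.07. In BEND2 14 of 20 were lower than in CTRL (7.46% of all genes), with a median of -0.23. HARS, a histidyl-tRNA synthetase, was the 1 member called in all 6 pairs, and it was higher (67.7 to 79.6 CPM without MN1, 85.5 to 103 CPM with it; 0.40, SE 0.0308). The C/EBP-ATF element TGATGNAA was found in 6 of 21 ATF4-target promoters of the RefSeq table (ASNS, SLC3A2, SLC7A1, CHAC1, ATF3 and FGF21) and in 6 of 16 synthetase promoters, against 3.62% of all 35116.

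**Figure D4:**
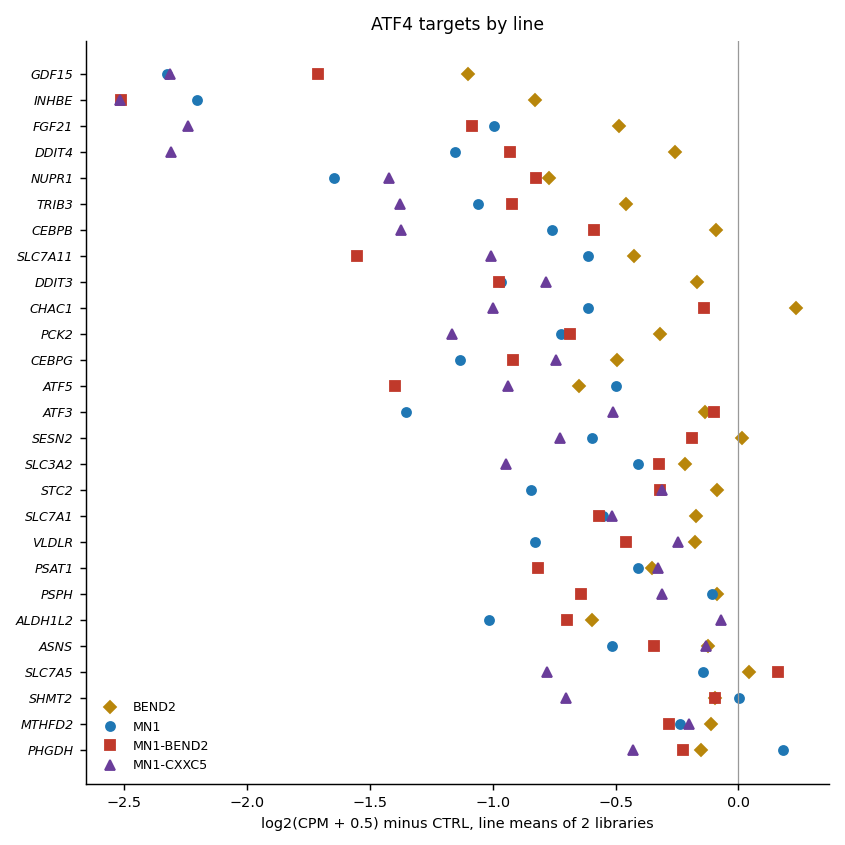
Difference from CTRL for the 27 ATF4 targets (vertical axis, ordered by the average contrast) as log2 of CPM plus 0.5 on the horizontal axis, where each symbol is the mean of 2 libraries of the BEND2 (diamonds), MN1 (circles), MN1-BEND2 (squares) or MN1-CXXC5 (triangles) line. For INHBE the carriers lie near -2.2 to -2.5 and BEND2 near -0.8, and at the foot PHGDH has carriers on both sides of 0.

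Over all tested genes 24.6% were called lower and 19.7% higher, and 1.8% lower in all 6 pairs, which is the background of the next counts. Of 25 p53 targets 18 were called lower, 2 higher and 5 neither way (median -0.23). The medians by line were -0.34 in MN1, -0.20 in MN1-BEND2 and -0.07 in MN1-CXXC5. Against both references 18, 14 and 9 members were lower in these lines (12.6%, 18.7% and 18.9% of all genes). In turn 1, 3 and 5 were higher (13.4%, 19.1% and 14.8% of all genes), so the fall was weakest in MN1-CXXC5. In all 6 pairs 5 members were lower. These were GADD45A, a stress sensor of cell-cycle arrest (from 67.1 to 82.3 CPM without MN1 to 30.3 to 59.5 CPM with it; -0.72, SE 0.0311), BBC3, the apoptosis activator PUMA (-0.63), the nuclease gene AEN (-0.35), SESN2 (-0.51) and GDF15 (-2.15), of which SESN2 and GDF15 are also on the ATF4 list. Also on the p53 list, CDKN1A (-0.29) and MDM2 (-0.14) were called lower on average, but CDKN1A stood highest in MN1-BEND2 (65.8 and 62.1 CPM) and MDM2 highest in MN1-CXXC5 (227 and 232 CPM). Of 28 glycolysis and hypoxia genes 15 were lower, 8 higher and 5 neither way (median -0.18). The medians by line were -0.02 in MN1, 0.05 in MN1-BEND2 and -0.32 in MN1-CXXC5, so the low median rested on MN1-CXXC5. Over all genes the fit without that line called 4500 higher and 4324 lower, against 3564 and 4451 with every line. Of the list, 12 members were then called higher and 12 lower. Those lower in all 6 pairs were VEGFA, the vascular growth factor (140.1 to 171 CPM without MN1 and 73.2 to 119.9 CPM with it; -0.81, SE 0.0245, adjusted p = 5.68e-10), PGK1, a glycolytic kinase (-0.50), the mitophagy receptors BNIP3 (-0.47) and BNIP3L (-0.43), PDK1 (-0.44) and ENO2 (-0.28). Glycolytic enzymes as such were split, with ENO1 (-0.18) lower and HK1 (0.29), PFKP (0.30) and PGAM1 (0.30) higher.

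Cholesterol synthesis genes were more often higher, with 13 of 24 called higher, 2 lower and 9 neither way (19.7% and 24.6% of all genes were called higher and lower; median 0.21, against -0.02 for all genes). In all 6 pairs 3 members were called higher (1.71% of all genes), SQLE (squalene epoxidase) and FDPS (farnesyl diphosphate synthase) among them. SQLE stood at 82.9 and 80.9 CPM in CTRL, 119 and 124 in BEND2, 139.5 and 148 in MN1, 144 and 141 in MN1-BEND2, and 147 and 144 in MN1-CXXC5 (0.53, SE 0.0253, adjusted p = 2.16e-08). Much of the distance from CTRL was thus shared by BEND2, in which 15 of 24 members were higher than in CTRL and 0 lower (6.71% and 7.46% of all genes; median 0.38). Against both references 14 members were higher in MN1, 7 in MN1-BEND2 and 8 in MN1-CXXC5 (13.4%, 19.1% and 14.8% of all genes). In turn 0, 3 and 7 members were lower than both references (12.6%, 18.7% and 18.9% of all genes), so that MN1-CXXC5 was split. Without the MN1 line 11 members were called higher and 7 lower, where 3866 of all genes were higher and 4601 lower. The list's median was 0.07 without the MN1 line and 0.11 without the CTRL line.

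Lists tied to what MN1 is known to bind or to work with showed no common direction, read against 19.7% of all genes called higher and 24.6% lower. Of 10 tested coactivator and receptor partners 1 was called higher, 3 lower and 6 neither way (median -0.11). CREBBP, the gene of CBP, was lower (106 to 130.4 CPM without MN1, 88.2 to 102 CPM with it; -0.29, SE 0.0284). Of 18 MEIS, PBX and HOXA genes 6 were higher, 4 lower and 8 neither way (median -0.01). HOXA9 was raised in MN1 (161 and 168 CPM) and MN1-CXXC5 (166 and 166 CPM) but not in MN1-BEND2 (102 and 96.9 CPM, against 112 to 119.7 CPM without MN1), so that its average of 0.28 describes no single line. BAF subunits gave 8 higher, 4 lower and 13 neither way of 25 (median 0.04), none of them called in all 6 pairs. SMARCA4, an ATPase of the complex, had libraries that did not overlap, at 167 to 199.6 CPM without MN1 and 208 to 243 CPM with it (0.29, SE 0.0387, adjusted p = 8.09e-05). Retinoic acid genes split evenly, 5 higher and 5 lower of 15, and NRIP1, a nuclear receptor co-repressor, fell in all 6 pairs (60.3 to 66 CPM becoming 34.3 to 53.7 CPM; -0.55, SE 0.0367).

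Several lists were moved in opposite directions by single lines, so that their averages were near 0. Median differences of the 20 immediate early genes were -0.46 in MN1, 0.38 in MN1-BEND2 and -0.05 in MN1-CXXC5, those of the 16 MAPK feedback targets -0.35, 0.62 and 0.16, and those of the 14 replication-dependent histone genes -0.65, 1.16 and -0.10. In the average contrast the same lists stood at -0.02, 0.12 and 0.12. CCND1, the cyclin D1 gene, was the MAPK target called higher in all 6 pairs, from 56.2 to 81.4 CPM without MN1 to 89.8 to 126 CPM with it (0.69, SE 0.0314, adjusted p = 1.49e-08). EPHA2, an ephrin receptor, was the one called lower in all 6 (40 to 46.2 CPM, then 23 to 36.1 CPM; -0.62, SE 0.0381). Histone genes have near-identical copies, and reads of such copies may be split uncertainly.

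The counts of the remaining lists stand against 19.7% of all genes called higher, 24.6% lower, and 1.71% higher and 1.8% lower in all 6 pairs, and many are near those shares. The fit without the CTRL line called 2505 of all genes higher and 3172 lower, and that without the MN1-BEND2 line 3461 and 4403. Of the mitochondrially encoded genes 10 of 13 were higher and 0 lower (median 0.22), or 5 higher without the CTRL line, but in none were all 6 pairs called, and the median was 0.08 in MN1 and 0.49 in MN1-CXXC5. G2/M genes gave 11 higher and 5 lower of 20 (median 0.07), with the checkpoint kinase BUB1 higher in all 6 pairs (0.33, SE 0.0222), and G1/S genes 4 higher and 6 lower of 20 (median -0.01). Collagen chains gave 5 higher and 10 lower of 32 (median -0.11), with COL6A1 (-0.52) and COL4A2 (-0.20) lower in all 6 pairs. TGF-beta and BMP targets gave 5 higher and 6 lower of 16 (median -0.01), with ID4 lower in all 6 pairs (-0.47). Synaptic vesicle genes gave 5 higher and 7 lower of 26 (median 0.00). SYP, the vesicle protein synaptophysin, fell in all 6 pairs, from 22.9 to 31.4 CPM to 9.25 to 17.8 CPM (-0.98, SE 0.0446, adjusted p = 1.59e-08). Neuropeptide genes gave 7 higher and 1 lower of 14 (median 0.38), or 3 and 1 without the CTRL line and 2 and 1 of 11 without the MN1-BEND2 line, and ADCYAP1 (2.55) was high in MN1-BEND2 alone and NTS (0.48) in MN1 alone. Astroglial markers gave 2 higher and 3 lower of 15 (median -0.02), epithelial junction and keratin genes 1 higher and 4 lower of 17 (median -0.09), and interferon-induced genes 5 higher and 2 lower of 17 (median 0.03). BST2, the virus-tethering protein tetherin, fell in all 6 pairs (12.3 to 15.5 CPM, then 6.36 to 9.94 CPM; -0.88, SE 0.0694), and 1 other member of that list was called higher in all 6. None of the 8 salivary and squamous markers or 2 hepatocyte markers tested was called.

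The largest averages were often not shared. PCDH10, a protocadherin (chromosome 4, 133149315 to 133208606), averaged 3.25 (SE 0.196, adjusted p = 1.38e-07) with 24.3 and 26.1 CPM in MN1-BEND2 and 5.8 and 5.33 in MN1-CXXC5, but stood at 0.669 and 1.34 CPM in MN1 against 0.385 to 0.811 CPM in the lines without MN1. ADRA2A, an adrenergic receptor gene (chromosome 10, 111077163 to 111080907), averaged 3.02 from 100.0 and 93.6 CPM in MN1-BEND2, while the other 8 libraries held 0.312 to 1.28 CPM. Its call ended without the MN1-BEND2 line (0.82, adjusted p = 0.07). With the line as the unit no gene was called, ADRA2A included (adjusted p = 0.99). The lowest adjusted p over the alternatives for ADRA2A, 8.50e-40, came from the fit with no filter. SLC24A2 (2.19) and DKK2 (2.10) were high in both fusion lines and not in MN1. COL12A1, a collagen chain gene (chromosome 6, 75084326 to 75206051), averaged 1.89 but was lower in MN1, at 6.13 and 6.96 CPM, than in the lines without MN1, at 10.5 to 13.9 CPM, and reached 145 and 146 CPM in MN1-BEND2. Among falls with overlapping libraries, FRG1 (-2.27) rested on CTRL replicate 2, at 22 CPM, and BEND2 replicate 1, at 8.65 CPM, against 1 to 2.43 CPM in the other 8. Without CTRL replicate 2 it was -0.79 (adjusted p = 0.309) and without BEND2 replicate 1 -1.11 (adjusted p = 0.397). CLK2 (-1.89) lost its call without the BEND2 line (-0.94, adjusted p = 0.165), and SMIM11A (-1.42) lost it in 7 of 21 alternatives, with adjusted p up to 0.324. HSPB8 (-1.37) was low in MN1-CXXC5, at 0.651 and 0.401 CPM, and LAMB3 (-1.27) likewise, at 2.01 and 1.83 CPM.

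The genes called in all 6 pairs were more abundant and more often protein coding than tested genes at large. Their median level was 75.1 CPM for the 310 rises and 37.8 CPM for the 327 falls, against 15.3 CPM for all, and 96.1% and 89.6% were protein coding, against 76.6%. Median GC content was 45.9% for the rises and 47.1% for the falls, against 47.9%. The part of abundance in the calls was not tested. GC content moved with the lines: in the 20% of genes with the highest GC content the median difference was 0.05 in MN1, 0.17 in MN1-BEND2 and -0.38 in MN1-CXXC5, and in the 20% with the lowest it was -0.04, -0.16 and 0.09. In the average contrast the same medians were -0.07 and -0.03. The part of GC content in single results was not tested beyond the offsets given above.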

How the data were processed

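RNA-seq was read from whole-number counts per gene that the authors deposited for 10 libraries, with no normalization. The submitters' processing notes name GRCh38 as the build and list featureCounts 2.0.0, HISAT2 and SAMtools 1.0.1. A strand setting was not given in the sources used here, nor an annotation release, so overlapping or antisense genes and near-identical copies are uncertain. The table held 58261 lines for 58216 identifiers; 45 identifiers with 2 lines were summed, 27 symbols turned into dates were restored from GENCODE v29, which also gave positions and GC content, and 0 value columns were unmatched. Here edgeR 4.0.16 (R 4.3.3; TMM, filterByExpr, quasi-likelihood F-test, 5 residual degrees of freedom, common biological coefficient of variation 0.040) was fitted on all 10 libraries with line as the factor. The contrast is the mean of 3 line coefficients minus the mean of 2. SD is over the 2 libraries of a line. In 17877 genes of simulated counts for this contrast, 36 of 50 changes of 1.2-fold and 50 of 50 at 1.5-, 2.0- and 4.0-fold were recovered, with 7 false calls. The simulation gave every gene the same coefficient of variation, 0.040, and changed only genes with over 50 expected counts. All lines had equal means apart from the changed genes. These figures therefore do not cover differences between lines, unequal spread or genes of low count.

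The genes named are the 3 construct genes; the 12 rises and 12 falls with at least 5 CPM on the higher side, no library overlap and a proper symbol, ranked by the smallest of 6 differences of log2(CPM + 0.5); the 5 and 5 largest averages with overlap; and up to 4 called members, by adjusted p, of each of 29 lists (564 entries, 562 matched by symbol and 2 by a current or older symbol). Other list members are named where they were called in all 6 pairs or illustrate a list, and were chosen after their values were seen. A few list members are not reported here. Members and lists were chosen with earlier results of these data known. Alternatives were DESeq2 1.42.0, library totals, no filter, GC and length offsets (values for 100.0% of tested genes), a replicate block, leaving out each library or line, the line as the unit and, chosen after seeing the data, leaving out CTRL replicate 1 and MN1 replicate 1 together. Intervals were not needed, and the floor of 3 counts covers counting error only.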

Additional observations from a re-analysis of the deposited data

Results flagged for a closer look

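The difference made by MN1 sequence was compared between 2 backgrounds, as MN1-BEND2 minus BEND2 against MN1 minus CTRL, by an interaction test (edgeR, Benjamini-Hochberg adjusted). The 2 effects differed in 6687 of 18127 genes (36.9%). Each gene below differed by that test, and a positive value means a higher MN1-BEND2 difference. With 2 libraries per line no group was large enough for a test of single outlying libraries.

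Among genes that rose in every line, the rise was larger from BEND2 to MN1-BEND2 than from CTRL to MN1 for PLXNC1 (0.64, adjusted p = 5.21e-04), CHST2 (2.54, adjusted p = 5.84e-05), SNCAIP (0.57, adjusted p = 0.0067), PDGFRA (1.00, adjusted p = 0.0202) and MEGF10 (1.12, adjusted p = 5.20e-04). It was smaller for FAM105A (-0.39, adjusted p = 2.90e-04), TSHZ3 (-0.48, adjusted p = 7.85e-04) and MN1 itself (-0.60, adjusted p = 3.78e-04). Of the 12 leading falls 6 were shallower from BEND2 to MN1-BEND2 than from CTRL to MN1. In either direction 150 of the 327 falls called in all 6 pairs passed this test, and the share by direction was not counted. TXNIP fell by 2.43 from CTRL to MN1 and by 1.06 from BEND2 to MN1-BEND2, a difference of 1.37 (SE 0.0578, adjusted p = 1.39e-08). The same held for ARRDC4 (1.24, adjusted p = 5.54e-09), TSC22D3 (1.10, adjusted p = 4.44e-09), G0S2 (1.65, adjusted p = 0.00194), INHBE (0.51, adjusted p = 0.00289) and DDIT4 (0.49, adjusted p = 0.00138). In these 6 genes the BEND2 line was itself below CTRL, and that part of the shallower fall cannot be told apart from the handling of CTRL. The other part is the distance between MN1-BEND2 and MN1, which does not involve CTRL. By the levels given above, MN1-BEND2 lay above MN1 in TXNIP, ARRDC4, TSC22D3, G0S2 and DDIT4, and below it in INHBE. The cause was not tested. BMF went the other way and fell more from BEND2 to MN1-BEND2 (-0.99, adjusted p = 5.99e-04). The other 5 leading falls, SCARA5, STC1, RAPGEF3, GPRC5A and XKR5, did not pass the test (adjusted p = 0.057 for STC1 to 0.931 for RAPGEF3).

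The rises that were not shared by all lines differed most: ADRA2A by 6.87 (SE 0.604), COL12A1 by 4.75 (SE 0.11), PCDH10 by 4.22 (SE 0.502), DKK2 by 2.80 (SE 0.268) and SLC24A2 by 2.54 (SE 0.417). CXXC5 differed by 1.45 (SE 0.117), since it was lower in MN1 than in CTRL (-0.63) and higher in MN1-BEND2 than in BEND2 (0.82). The causes of these differences were not tested.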

How the results depend on the processing

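The contrast kept its count within 1.5 times in all alternatives except DESeq2 (4983 calls, 2357 higher and 2626 lower, of which 4978 were shared with the 8015) and the line as the unit (0 calls, 0 higher and 0 lower; 3 against 2 lines). A similar count need not hold the same genes. Of the 8015 calls, 64.2% were kept in direction without the CTRL line, against 62.1% with DESeq2. The share was 70.9% without the MN1-BEND2 line, 77.4% without MN1-CXXC5, 82.5% without BEND2 and 82.7% without MN1. Calls in all 6 pairs fell to 275 (158 higher, 117 lower) with DESeq2, and 546 were lower with GC and length offsets. Leaving out 1 library gave 402 to 549 (187 to 275 higher, 215 to 285 lower), lowest without BEND2 replicate 1. Leaving out a line leaves fewer pairs to pass: 802 (383 and 419) without CTRL, 1895 (835 and 1060) without BEND2, 1607 (949 and 658) without MN1, 1352 (742 and 610) without MN1-BEND2 and 2040 (1009 and 1031) without MN1-CXXC5. Genes without library overlap numbered 2512 (1151 and 1361), 3950 (1690 and 2260), 3355 (1795 and 1560), 3394 (1691 and 1703) and 4448 (2189 and 2259) in that order, and GC offsets gave 499 higher. BEND2 against CTRL gave 838 calls with DESeq2, 1649 with GC offsets, 1064 to 2526 without 1 library and 1239 without CTRL replicate 1 and MN1 replicate 1, a setting chosen after seeing the data. The interaction gave 3774 with DESeq2.

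The replicate numbers were not established as pairing: replicate 1 minus 2 correlated at 0.073 to 0.275 between lines, with only 2 numbers. With a replicate block the contrast gave 9040 calls (4096 and 4944), all 6 pairs 843 (432 and 411) and BEND2 against CTRL 4159, and the block ended no call of a named gene.

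Of 129 named genes, 97 kept direction and call in every alternative other than the line as the unit, the 24 leading genes among them. Those 24 were chosen for a call and for libraries that did not overlap. That they kept both was favoured by the choice and is not independent evidence. Signs turned for BEND2 without CTRL replicate 2 (range without 1 library -2.55 to 1.03), the BEND2 line (5.02), the MN1 line (1.18) or the MN1-CXXC5 line (0.40); for CRABP2 (0.00), NTS (-0.89) and HIST2H2BE (0.33) without the MN1 line; for HIST2H2BE with the line as the unit (0.10) or without the CTRL line (0.04); for ETV5 (-0.07), COL14A1 (0.09) and HIST1H2BK (-0.07) without the MN1-BEND2 line; and for ID3 (0.05), CALCB (0.00), KRT19 (0.05) and PAX2 (-0.10) without the MN1-CXXC5 line. The causes were not tested. At this depth changes of 1.2-fold were not all recovered in simulated counts, so uncalled small changes are not shown to be absent.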
